A study of Mus musculus with 4 samples.

Results

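The collagens, laminins and basement membrane genes of cultured mouse aortic endothelial cells were compared between cells given macrophage supernatant and cells kept in ordinary medium. Genes were taken by symbol from the deposited table: every collagen α chain, every laminin chain, the nidogens, the lysyl oxidases, and Hspg2, Agrn, Sparc, Fbn1, Fn1, Eln, Bgn, Dcn and Lum. The rule found 71 of the 27179 genes in the table. The cells were mAEC, a murine aortic endothelial line. The conditioned medium group had been given supernatant from macrophages that carried both TNFα, a cytokine of inflammation, and the macrophage marker CD68. The control group had been cultured in normal medium. Each group held 2 libraries, which the design text calls biological replicates. The labels give no treatment time, dose, passage, macrophage source or batch, so a batch that follows the groups cannot be told apart from the treatment. No group was given supernatant of other cells, so an effect of cell supernatant in general cannot be told apart from that of these macrophages.

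Endothelial cells rest on a basement membrane, a thin sheet that they largely secrete themselves. Type IV collagen and laminin each polymerise into a network, and nidogen and perlecan join the networks. Fibronectin, fibrillar collagens and elastic fibres belong to the interstitial matrix outside that sheet, and lysyl oxidases cross-link collagen and elastin chains. In artery walls, interstitial collagens are made mainly by smooth muscle cells and fibroblasts.

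Of the 71 genes, 7 rose and 2 fell in conditioned medium. The rises were in Col11a1, a fibrillar collagen (2.03-fold), Bgn, the proteoglycan biglycan (1.47-fold), Fn1, fibronectin (1.30-fold), Nid1, nidogen (1.25-fold), Loxl4, a lysyl oxidase (1.25-fold), Col5a3, a fibrillar collagen (1.24-fold), and Lama5, a laminin α chain (1.19-fold). The falls were in Col8a1, a short-chain collagen of vessel walls (1.35-fold lower), and Lamc1, the main laminin γ chain (1.11-fold lower). The major network collagens Col4a1 and Col4a2, the perlecan gene Hspg2 and Sparc did not pass the test, and only Col11a1 reached 2-fold. Calls are at an adjusted p under 0.05 from edgeR's quasi-likelihood test, fitted on all genes. At that threshold 9 of the 38 genes tested were called (23.7%), beside 16.8% of all 13897 genes tested. In the higher direction the shares were 18.4% of these genes and 8.53% of all, and in the lower direction 5.26% and 8.23%. The calls in Fn1, Nid1, Loxl4, Col11a1 and Col8a1 were kept under all 13 alternative settings, whereas those in Lama5, Lamc1, Col5a3 and Bgn were lost when either conditioned medium library was left out. With conditioned medium replicate 1 left out 5 of these genes were called, beside 5.71% of all genes tested, and with replicate 2 left out also 5, beside 4.03%. DESeq2 called 7, beside 6.61%.

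**Figure D1:**
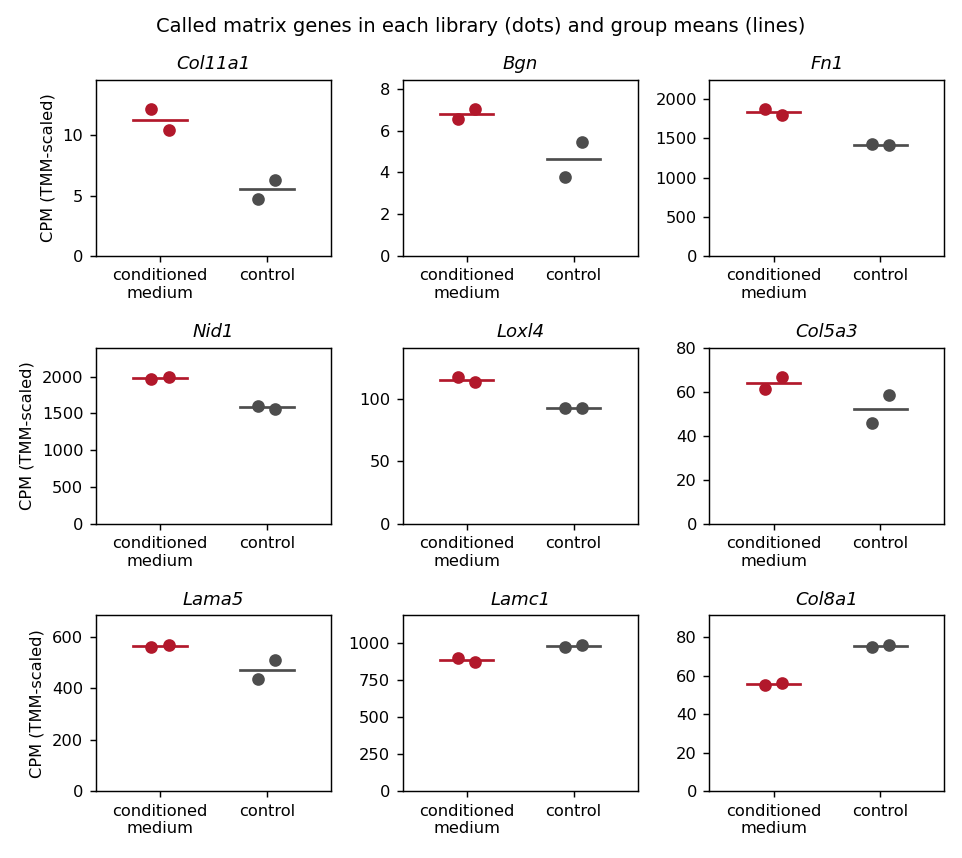
Normalised level of the 9 called genes in CPM (counts scaled to library size with TMM) on linear axes from 0, with conditioned medium left and control right; dots are libraries and lines the means of 2. The groups do not overlap in any panel, and the control libraries lie farther apart than the conditioned medium libraries for Lama5, Col5a3 and Bgn.

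The libraries summed to between 13815695 and 18005840 counts, at which 3 counts equal 0.167 to 0.217 CPM. The 71 genes took 1.55% and 1.53% of the counts in the conditioned medium libraries and 1.42% and 1.51% in the control libraries. The labelled cell type was checked against markers. Of 10 endothelial markers 9 had at least 10 counts in every library, and their summed level ran from 6961 to 7031 CPM in conditioned medium and from 6928 to 6936 CPM in control; the exception, Cldn5, had 1 count in all. Of the 9, Egfl7 was called higher at 0.21 on the log2 scale (edgeR adjusted p = 0.00226), and Kdr and Emcn were called lower at -0.16 and -0.13 (edgeR adjusted p = 0.0123 and 0.0298). Of 10 smooth muscle and pericyte markers 6 stayed under 10 counts in every library, with a summed level of 11.3 and 12.4 CPM in conditioned medium against 10.6 and 11.02 CPM in control. Of 10 fibroblast markers 6 stayed under 10 counts and Thy1, Tcf21 and Twist2 were at 0, but Pdgfra and Pi16 were called higher, and the summed level was 76.3 and 77.3 CPM in conditioned medium against 59.2 and 65.2 CPM in control. The part of these transcripts in the matrix results was not tested. Of 10 macrophage markers 7 stayed under 10 counts, with Adgre1, Mrc1 and Tyrobp at 0; the summed level, mostly Cd68, was 252.5 and 260.2 CPM in conditioned medium and 230.3 and 260.04 CPM in control. Of 8 epithelial markers 7 stayed under 10 counts. In a bulk sample, a change in the number of cells of a type and a change in RNA per cell cannot be told apart.

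Of the 71 genes, 38 passed the filter on low counts and 33 did not. Of the 33, 10 had 0 counts in all 4 libraries: Lox, Lum, Col1a2, Col16a1, Col19a1, Col24a1, Col26a1, Col6a4, Col6a5 and Col6a6. The other 23 had between 1 and 37 counts over all libraries. Among these were Col1a1, which forms type I collagen with Col1a2 (21 counts), Dcn, decorin (27 counts), Fbn1, fibrillin (27 counts), Loxl1, a lysyl oxidase of elastic fibres (37 counts), and Lama2, the laminin α chain of muscle (6 counts). Type I collagen and Lox, the founding lysyl oxidase, were thus at or near the detection limit in both groups, so no difference in them was detectable at this depth. Of the 38 tested genes, 2 passed the filter only through conditioned medium, Lamc3 and Col15a1, and 2 only through control, Col22a1 and Col9a3; none of the 4 was called. Non-overlapping values between groups were seen in 28 of the 38, 22 with conditioned medium higher and 6 lower, beside 57.2% of all tested genes. The median log2 fold change was 0.20 over the 38 and 0.00037 over all genes tested; this median covers only those that passed the filter and supports no call.

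**Figure D2:**
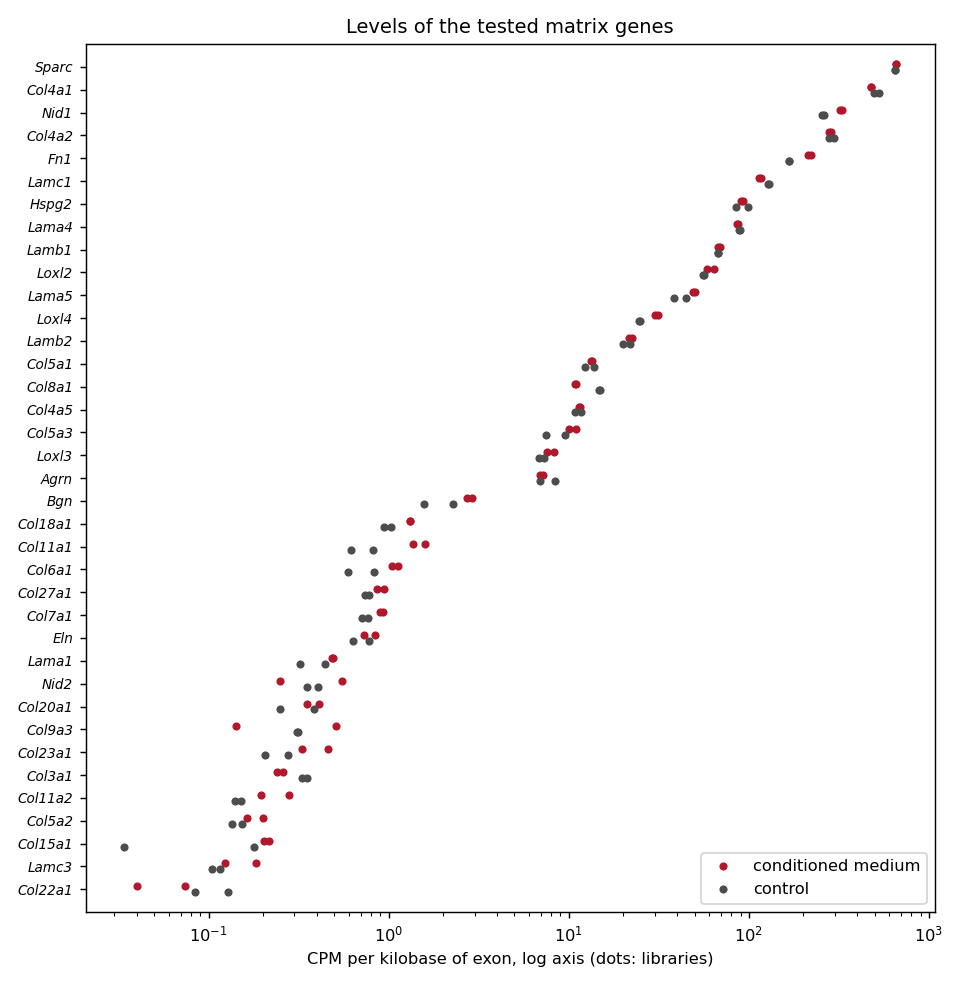
Level of 37 of the 38 tested genes in CPM per kilobase of exon on a log axis, each dot a library, conditioned medium drawn above control in each row. Sparc and Col4a1 stand highest and Col22a1 near the bottom, and red and grey dots separate clearly for Nid1, Fn1, Loxl4, Col8a1 and Col11a1.

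Read per kilobase of exon, which allows levels to be set between genes, a few transcripts dominated. Sparc, a secreted collagen-binding glycoprotein, stood highest at 657 ± 1.98 CPM per kilobase in conditioned medium and 651 ± 0.0479 in control (mean ± SD, n = 2 each, as for all levels here). Col4a1 followed at 477 ± 2.14 and 512 ± 26.3 CPM per kilobase in conditioned medium and control. Nid1 stood at 325 ± 3.92 and 259 ± 4.13, Col4a2 at 283 ± 3.31 and 289 ± 13.3, and Fn1 at 217 ± 5.95 and 167 ± 1.31. The order of Nid1 and Col4a2 was not the same in the groups: the ratio of Nid1 to Col4a2 per kilobase was 1.13 and 1.17 in the conditioned medium libraries and 0.937 and 0.859 in the control libraries. Below these came Lamc1 at 116 ± 2.55 and 128 ± 1.32, Hspg2 at 91.9 ± 2.11 and 92.0 ± 9.57, Lama4 at 87.0 ± 0.999 and 88.5 ± 0.695, and Lamb1 at 68.0 ± 1.14 and 67.1 ± 0.0321, again conditioned medium before control. Hspg2 and Lama4 did not differ from each other beyond the spread of the control libraries. The 8 genes with the most counts, Col4a1, Col4a2, Nid1, Sparc, Fn1, Hspg2, Lamc1 and Lama4, held 87.1% of all counts of the 71.

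Type IV collagen is the scaffold of every basement membrane, and its α1 and α2 chains, products of Col4a1 and Col4a2, assemble together. Of its 6 chains 3 were tested and none of these was called, beside 16.8% of all genes tested. Col4a1 had 3167 and 3147 CPM in conditioned medium against 3261 and 3507 CPM in control. The groups did not overlap, but the log2 fold change was only -0.10 ± 0.04 (SE; edgeR adjusted p = 0.138). Col4a2 had 1841 and 1810 CPM in conditioned medium against 1805 and 1927 CPM in control, groups that overlapped, and its log2 fold change was -0.03 ± 0.04 (edgeR adjusted p = 0.684). Without control replicate 1, the library with the lower values, the log2 fold changes of Col4a1 and Col4a2 were -0.15 and -0.08. Without control replicate 2 Col4a2 stood at 0.02. Col4a5, the chain shared with a minor network, had 75.7 and 74.7 CPM in conditioned medium against 71.2 and 76.1 CPM in control (edgeR adjusted p = 0.776). Its partner Col4a6 had 15 counts in all, Col4a3 had 3 and Col4a4 had 13, so the chains typical of kidney and lung basement membranes were barely detected.

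Col4a1 and Col4a2 lie head to head on chromosome 8 in mm10, at 11198423 to 11312889 and 11312805 to 11449287, so that their 5′ ends overlap by 85 bases and a short stretch serves as promoter for both. Within a library the ratio of Col4a1 to Col4a2 per kilobase was 1.68 and 1.70 in conditioned medium against 1.76 and 1.78 in control. The windows of RefSeq promoter sequence (GRCm38.p6, 250 bases before to 50 after each start) share 78 bases and are shown because the pair has the most counts of all these genes. The start used for the Col4a1 window lies inside the gene end given above, so the bases shared by the windows do not follow from that end. The Col4a1 window is chr8:11312777-11313076 on the minus strand and the Col4a2 window chr8:11312555-11312854 on the plus strand; capitals mark matches to the motifs described below.
Col4a1: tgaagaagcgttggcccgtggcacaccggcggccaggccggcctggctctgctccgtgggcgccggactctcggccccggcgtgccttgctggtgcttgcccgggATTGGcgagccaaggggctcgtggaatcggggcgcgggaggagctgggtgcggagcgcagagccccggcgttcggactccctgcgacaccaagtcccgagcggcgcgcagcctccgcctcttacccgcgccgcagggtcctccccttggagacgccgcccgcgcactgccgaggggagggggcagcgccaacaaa
Col4a2: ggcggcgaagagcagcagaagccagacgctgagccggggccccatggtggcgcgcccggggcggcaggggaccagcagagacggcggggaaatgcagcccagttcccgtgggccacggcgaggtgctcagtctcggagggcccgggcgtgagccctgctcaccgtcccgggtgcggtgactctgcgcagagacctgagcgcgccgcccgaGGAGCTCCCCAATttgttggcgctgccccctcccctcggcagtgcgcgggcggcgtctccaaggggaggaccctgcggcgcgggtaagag

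Laminins are cross-shaped trimers of an α, a β and a γ chain, and vessels use mainly those with the α4 or α5 chain. Of the 11 chains 8 were tested. Of these 1 rose, 1 fell and 6 were not called, beside 8.53% higher and 8.23% lower of all genes tested. The median log2 fold change was 0.15 over the tested chains. Lama5 had 559.9 and 570.3 CPM in conditioned medium against 437 and 510.5 CPM in control. Both conditioned medium libraries lay above the control libraries, which differed from each other by more than the gap to conditioned medium. The log2 fold change was 0.25 ± 0.05 (edgeR adjusted p = 0.00251). It was 0.15 without control replicate 1 and 0.37 without control replicate 2. The call was lost without conditioned medium replicate 1 or replicate 2, with log2 fold changes of 0.27 and 0.24. Lamc1, the γ chain in most laminins, had 897 and 869 CPM in conditioned medium against 972 and 986 CPM in control. Its log2 fold change was -0.15 ± 0.04 (edgeR adjusted p = 0.0163). It too was not called without conditioned medium replicate 1 or 2, with log2 fold changes of -0.17 and -0.13. In the same libraries Lama4, the other endothelial α chain, stood at 522 and 530 CPM in conditioned medium against 538 and 532 CPM in control, or -0.02 ± 0.04 on the log2 scale (edgeR adjusted p = 0.749). Lamb1, the common β chain, had 402 and 393 CPM in conditioned medium against 392 CPM in each control library (edgeR adjusted p = 0.818). The ratio of Lama5 to Lama4 per kilobase was 0.570 and 0.571 in conditioned medium and 0.431 and 0.510 in control, so Lama4 transcripts were the more abundant in all 4 libraries.

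None of the remaining laminin chains passed the test. Lamb2, a β chain of mature vessels and synapses, had 127 and 121 CPM in conditioned medium against 112 and 124 CPM in control. Its log2 fold change was 0.07, and 0.15 without control replicate 2. Lama3 and Lamb3, chains of epithelial laminin, had 21 and 32 counts in all and were not tested. Lama1, an early embryonic α chain, was at a log2 fold change of 0.35 ± 0.21 and Lamc3 at 0.44 ± 0.44, on 4.64 and 0.901 CPM in conditioned medium and 3.65 and 0.647 CPM in control.

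Among the proteins that tie the collagen and laminin networks together, Nid1 rose, while Nid2, Hspg2 and Agrn did not pass the test. Nid1 binds both laminin γ1 and type IV collagen. It had 1962 and 1996 CPM in conditioned medium against 1598 and 1562 CPM in control, pairs that lay close together and far from each other. The log2 fold change was 0.32 ± 0.04 (edgeR adjusted p = 1.41e-05) and stayed between 0.31 and 0.34 over 13 alternatives, all called, with adjusted p up to 0.0418. Set against its laminin ligand, the ratio of Nid1 to Lamc1 per kilobase was 2.74 and 2.87 in the conditioned medium libraries and 2.06 and 1.98 in the control libraries. Nid2, the second nidogen, had only 2.67 and 1.22 CPM in conditioned medium against 1.96 and 1.71 CPM in control (edgeR adjusted p = 0.977), and 437 of its exon bases overlap Rtraf on the opposite strand, which held 7713 counts in all. Hspg2, which encodes perlecan, the main heparan sulfate proteoglycan of vessel basement membranes, had 1328 and 1285 CPM in conditioned medium against 1212 and 1405 CPM in control. The conditioned medium libraries lay between the control libraries, and the log2 fold change was -0.00 ± 0.05 (edgeR adjusted p = 0.986). Which control library was kept set its direction: the log2 fold change was -0.11 without control replicate 1 and 0.11 without control replicate 2. Agrn, agrin, a related heparan sulfate proteoglycan, had 56.3 and 53.8 CPM in conditioned medium against 53.8 and 65.7 CPM in control (edgeR adjusted p = 0.299). Its log2 fold change was -0.26 without control replicate 1 and 0.029 without control replicate 2.

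**Figure D3:**
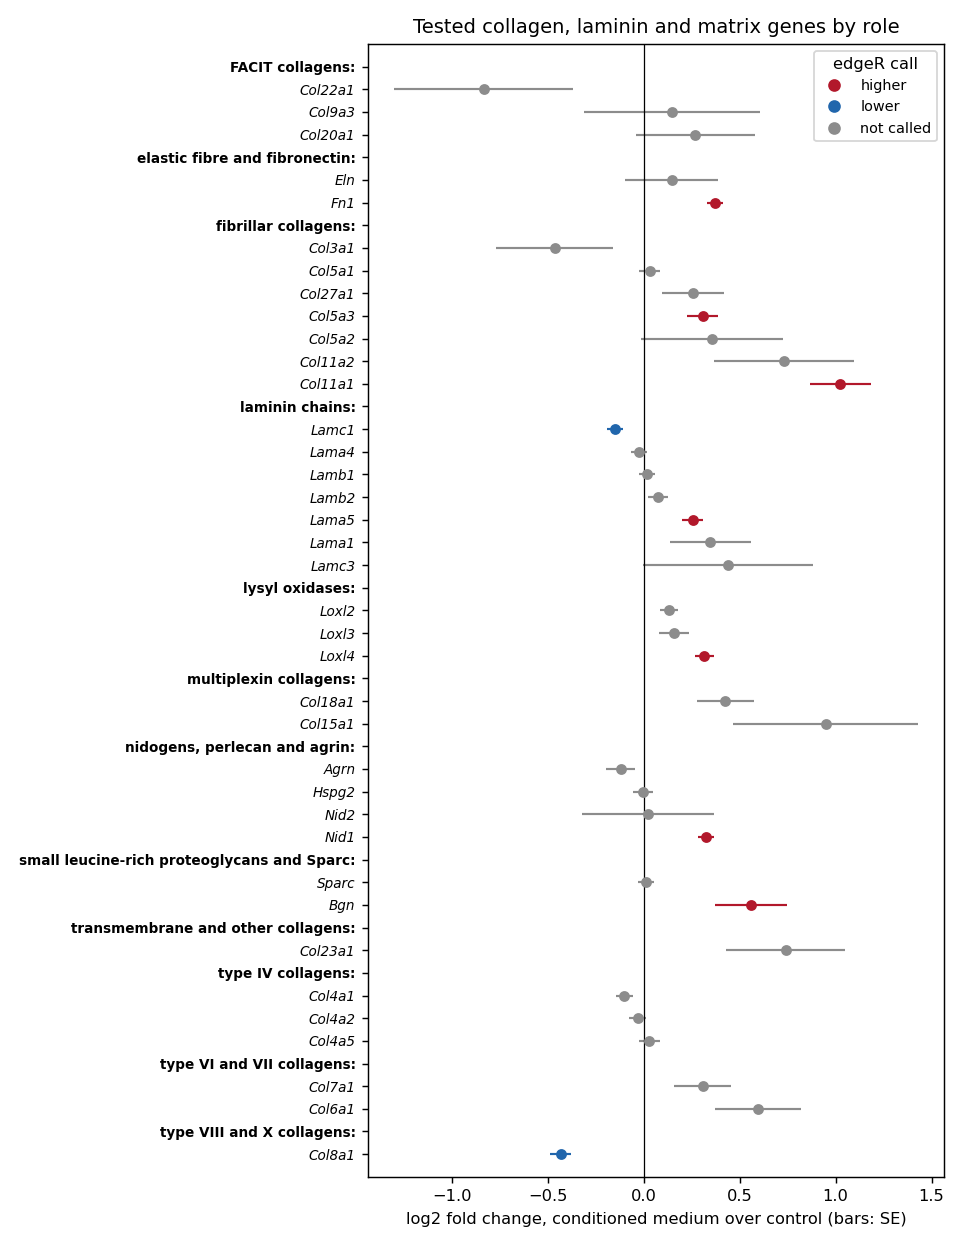
Log2 fold change (conditioned medium over control) of 37 of the 38 tested genes by role, with bars of 1 SE; red is called higher, blue called lower, grey not called. Type IV collagens, Sparc, Hspg2, Lama4 and Lamb1 sit within 0.11 of 0, and the widest bars belong to genes of few counts such as Col15a1 and Col22a1.

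Fibronectin, which cells assemble into fibrils through integrins, was, per kilobase, the most abundant gene to rise after Nid1. Fn1 had 1874 and 1803 CPM in conditioned medium against 1427 and 1411 CPM in control, groups that lay well apart. Its log2 fold change was 0.37 ± 0.04 (edgeR adjusted p = 3.32e-06), and it ranged from 0.35 to 0.40 over the alternatives, with adjusted p up to 0.0135. The library kit does not mark strand, and 227 exon bases of Fn1 overlap Apol7d on the opposite strand, but Apol7d held only 21 counts in all. Eln, which encodes elastin, had 3.25 and 2.83 CPM in conditioned medium against 2.44 and 3.01 CPM in control (edgeR adjusted p = 0.739), overlapping groups.

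Fibrillar collagens form the rope-like fibres of interstitial matrix. Of 11 genes 7 were tested, 2 rose and 5 were not called, beside 8.53% higher and 8.23% lower of all genes tested. Col11a1, a minor fibril collagen best known in cartilage, had 12.2 and 10.4 CPM in conditioned medium against 4.74 and 6.30 CPM in control. Both conditioned medium values lay above both control values. Its log2 fold change of 1.02 ± 0.16 (edgeR adjusted p = 1.23e-04) was the largest among the called genes and ran from 0.83 without control replicate 1 to 1.24 without control replicate 2, with adjusted p up to 0.0130. It rests on 169 and 188 counts in conditioned medium and 70 and 92 in control. Col5a3, a minor chain of type V collagen, had 61.5 and 66.8 CPM in conditioned medium against 45.6 and 58.4 CPM in control. The groups did not overlap, but the control libraries were farther apart from each other than the nearest libraries of the groups. The log2 fold change was 0.31 ± 0.08 (edgeR adjusted p = 0.0123). It was 0.14 without control replicate 1 and 0.50 without control replicate 2. The call was lost when control replicate 1, conditioned medium replicate 1 or conditioned medium replicate 2 was left out. It was also lost in DESeq2 (adjusted p = 0.0917) and in edgeR with a robust spread (adjusted p = 0.101).

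The type V chain of highest level per kilobase, Col5a1, had 113 and 111 CPM in conditioned medium against 104 and 116 CPM in control, or 0.03 ± 0.06 on the log2 scale (edgeR adjusted p = 0.757). Col3a1, the chief collagen of distensible tissue, had 1.44 and 1.33 CPM in conditioned medium against 1.96 and 1.85 CPM in control (log2 fold change -0.46 ± 0.31; edgeR adjusted p = 0.337). Col11a2, the partner chain of Col11a1, had 1.23 and 1.77 CPM in conditioned medium against 0.880 and 0.958 CPM in control (0.73 ± 0.36; edgeR adjusted p = 0.186). Non-overlapping groups with so few counts did not pass the test. Col27a1 and Col5a2 were also not called.

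Of the other collagens, those tested were 3 FACIT collagens, 2 multiplexins, 2 of types VI and VII, 1 transmembrane and 1 of type VIII. Col8a1 was the only gene called, beside 16.8% of all genes tested. Type VIII collagen forms short-chain networks beneath endothelium and in the vessel wall, and it was first isolated from endothelial cultures. Col8a1 had 55.3 and 56.4 CPM in conditioned medium against 74.8 and 76.1 CPM in control, with 2 tight pairs and a wide gap between them. Its log2 fold change was -0.43 ± 0.06 (edgeR adjusted p = 1.57e-05), from -0.45 to -0.42 over the alternatives, with adjusted p up to 0.00795. Its partner chain gene Col8a2 had 1 count in all. Col18a1, whose C-terminal fragment is endostatin, had 8.95 and 8.98 CPM in conditioned medium against 6.37 and 6.98 CPM in control. It stood just outside the threshold at 0.43 ± 0.15 on the log2 scale (edgeR adjusted p = 0.0518). It was called in 5 of 13 alternatives, among them without control replicate 2, at 0.49. Col15a1, the related multiplexin, had 1.30 and 1.22 CPM in conditioned medium against 1.08 and 0.205 CPM in control (0.95 ± 0.48, edgeR adjusted p = 0.199). The difference was carried by 3 counts in control replicate 2: the log2 fold change was 2.56 without control replicate 1 and 0.21 without control replicate 2. Col6a1, a beaded-filament chain, had 4.62 and 4.27 CPM in conditioned medium against 2.44 and 3.42 CPM in control (0.59 ± 0.22, edgeR adjusted p = 0.0754). Without control replicate 2 Col6a1 stood at 0.86. Its obligate partners Col6a2 and Col6a3 held 3 and 19 counts in all. Col7a1, of anchoring fibrils, was at 0.31 ± 0.15, Col23a1, a transmembrane collagen, at 0.74 ± 0.31 (edgeR adjusted p = 0.115), and the FACIT collagen genes, which coat fibrils, ran from -0.83 ± 0.47 in Col22a1 to 0.27 ± 0.31 in Col20a1, none called.

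Promoter windows of Nid1, Col11a1 and Col8a1 are shown as examples from the genes called in every setting, in both directions. Those of Fn1 and Loxl4, also called in every setting, are not shown. A window was present for 47 of the 71 genes. The windows shown are from RefSeq, GRCm38.p6, at chr13:13437352-13437651 (plus strand), chr3:114030290-114030589 (plus strand) and chr16:57754688-57754987 (minus strand). For Col11a1 the start used lies inside the outer end of the gene, as for Col4a1. Capitals mark matches, on either strand, to the NF-kB consensus, TGANTCA (AP-1), CCAAT (the CCAAT box) and ACGTG (the hypoxia response core).
Nid1: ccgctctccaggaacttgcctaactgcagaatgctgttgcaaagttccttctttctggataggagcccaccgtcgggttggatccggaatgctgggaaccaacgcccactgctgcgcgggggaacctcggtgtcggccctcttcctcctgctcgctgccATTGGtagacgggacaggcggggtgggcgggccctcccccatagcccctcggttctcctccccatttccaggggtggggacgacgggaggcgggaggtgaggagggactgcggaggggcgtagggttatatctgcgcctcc
Col11a1: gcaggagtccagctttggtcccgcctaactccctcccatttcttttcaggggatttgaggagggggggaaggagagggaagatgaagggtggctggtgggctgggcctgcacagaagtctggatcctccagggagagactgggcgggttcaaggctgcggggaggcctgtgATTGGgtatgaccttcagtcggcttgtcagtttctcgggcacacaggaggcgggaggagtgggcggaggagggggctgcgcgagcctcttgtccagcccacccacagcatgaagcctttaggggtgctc
Col8a1: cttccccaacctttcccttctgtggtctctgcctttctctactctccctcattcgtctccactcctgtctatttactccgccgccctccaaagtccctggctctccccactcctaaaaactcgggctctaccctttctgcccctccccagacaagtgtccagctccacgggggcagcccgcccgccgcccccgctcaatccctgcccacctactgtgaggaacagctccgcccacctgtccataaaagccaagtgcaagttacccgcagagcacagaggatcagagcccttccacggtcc

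The NF-kB consensus, named for the factor that TNFα activates, had 1 match in the Col4a2 window and 0 in those of Nid1, Col11a1, Col8a1 and Col4a1. It is present in 8.46% of the 32851 promoter windows of the reference and in those of 8 of the 47 genes. The CCAAT box had 1 match in each of the 5 windows but that of Col8a1, where it had 0, beside 37.4% of all windows and 15 of the 47. AP-1 and the hypoxia core had 0 matches in these 5 windows and occur in 7.81% and 19.6% of all windows and in those of 1 and 5 of the 47 genes. In the Col4a2 window the NF-kB and CCAAT matches overlapped. The matches describe letters only and were not set against the fold changes.

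Small leucine-rich proteoglycans bind collagen fibrils and set their spacing. Bgn, biglycan, had 6.57 and 7.04 CPM in conditioned medium against 3.79 and 5.47 CPM in control. Its log2 fold change was 0.56 ± 0.19 (edgeR adjusted p = 0.0441), on 91 and 127 counts in conditioned medium and 56 and 80 in control. It was the weakest of the calls: it was lost in 6 of 13 alternatives, namely DESeq2 (adjusted p = 0.309), library-total scaling (0.0537), no count filter (0.0597), and without conditioned medium replicate 1 (0.161), conditioned medium replicate 2 (0.314) or control replicate 1 (0.329). The log2 fold change was 0.32 without control replicate 1 and 0.85 without control replicate 2. Sparc had 1784 and 1792 CPM in conditioned medium against 1772 and 1773 CPM in control. The log2 fold change was 0.01 ± 0.04 (edgeR adjusted p = 0.878), and it stayed from 0.01 to 0.03 in the alternatives.

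Lysyl oxidases make the covalent cross-links that stiffen collagen and elastin. Of the 5 genes 3 were tested, and 1 was called, beside 16.8% of all genes tested. Loxl4 had 117 and 113 CPM in conditioned medium against 92.4 and 92.6 CPM in control, groups that did not overlap. Its log2 fold change was 0.32 ± 0.05 (edgeR adjusted p = 1.41e-04), from 0.29 to 0.34 over the alternatives, with adjusted p up to 0.0210. Loxl2, which cross-links type IV collagen, was the most abundant of these per kilobase, with 347 and 315 CPM in conditioned medium against 305 and 299.7 CPM in control. The groups did not overlap, but the log2 fold change of 0.13 ± 0.05 was not called (edgeR adjusted p = 0.0674). It was called in 5 of 13 alternatives, among them those without control replicate 1 or 2, where the spread comes from the conditioned medium pair alone. It was 0.06 without conditioned medium replicate 1 and 0.20 without conditioned medium replicate 2. Loxl3 had 34.1 and 30.9 CPM in conditioned medium against 28.2 and 29.8 CPM in control (edgeR adjusted p = 0.190), and 535 of its exon bases overlap Htra2 on the opposite strand.

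**Figure D4:**
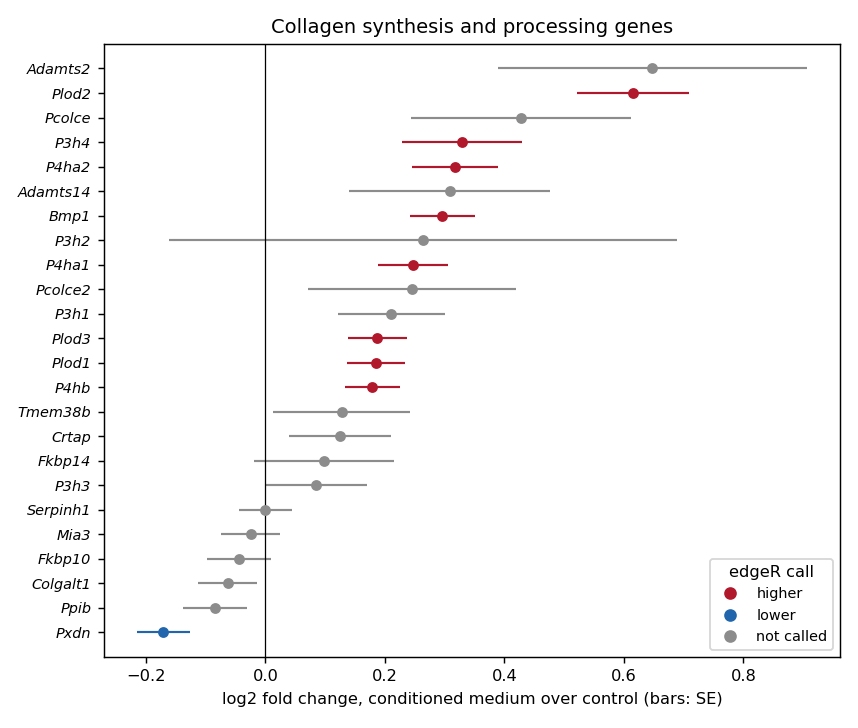
Log2 fold change (conditioned medium over control, bars of 1 SE) of the 24 tested genes that modify, fold and process collagen; red is called higher, blue lower and grey not called. The 8 genes called higher include all 3 lysyl hydroxylases (Plod1, Plod2 and Plod3), and Pxdn alone is called lower.

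Newly made collagen chains are hydroxylated and folded in the endoplasmic reticulum and trimmed after secretion. Of 28 genes of collagen synthesis and processing 24 were tested, 8 rose, 1 fell and 15 were not called, beside 8.53% higher and 8.23% lower of all genes tested, with a median log2 fold change of 0.19. Plod2, the lysyl hydroxylase of collagen telopeptides, rose most, with 48.8 and 50.9 CPM in conditioned medium against 37.5 and 27.6 CPM in control (0.62 ± 0.09; edgeR adjusted p = 9.10e-05). It was 0.85 without control replicate 1 and 0.41 without control replicate 2, and was called in all 13 alternatives. P3h4, a component of a prolyl and lysyl hydroxylase complex, rose by 0.33 ± 0.10 and P4ha2, a prolyl 4-hydroxylase subunit, by 0.32 ± 0.07. The other genes that rose, named after their values were seen, were Bmp1, the procollagen C-proteinase (0.30 ± 0.05), P4ha1 (0.25 ± 0.06) and P4hb (0.18 ± 0.05), further prolyl 4-hydroxylase subunits, and the lysyl hydroxylases Plod3 (0.19 ± 0.05) and Plod1 (0.18 ± 0.05). Pxdn, peroxidasin, which forms sulfilimine cross-links in type IV collagen, was the one that fell, with 756 and 725 CPM in conditioned medium against 811 and 856 CPM in control (-0.17 ± 0.04; edgeR adjusted p = 0.00959). Serpinh1, the collagen chaperone, named for the same reason, had 318 and 335 CPM in conditioned medium against 327 CPM in each control library.

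Several of these calls were lost when a conditioned medium library was left out. The spread was then taken from the control pair alone, which lay farther apart, and fewer genes were called in the whole table. Without conditioned medium replicate 1 the list had 4 rises and 0 falls, beside 5.71% of all genes called. Without conditioned medium replicate 2 it had 2 and 0, beside 4.03%, and in DESeq2 3 and 1, beside 6.61%. P4hb, Plod1, Plod3, P3h4 and Pxdn were lost without either of those libraries (adjusted p without replicate 1 and replicate 2: P4hb 0.233 and 0.173, Plod1 0.180 and 0.137, Plod3 0.0723 and 0.292, P3h4 0.181 and 0.185, Pxdn 0.140 and 0.332), P4ha1 and P4ha2 without replicate 2 (0.305 and 0.204, with log2 fold changes of 0.14 and 0.22), and P3h4 also without control replicate 1 (0.128). Only Plod2 and Bmp1 were called in all 13 alternatives.

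Outside the genes chosen by the rule, 22 further basement membrane and elastic fibre genes were read from the same fit. Of 11 tested, 1 rose and 0 fell, beside 8.53% and 8.23% of all genes tested, so the count is near the background. Ecm1, a secreted glycoprotein that binds perlecan, had 60.2 and 61.4 CPM in conditioned medium against 33.3 and 35.0 CPM in control (log2 fold change 0.83 ± 0.06; edgeR adjusted p = 2.06e-08). Ntn4, a netrin that binds laminin γ chains, lay at the threshold at -0.19 ± 0.07 on the log2 scale (edgeR adjusted p = 0.05003). It was called in 5 of 13 alternatives, among them without control replicate 1, at -0.21. It was named after its values were seen.

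Matricellular proteins are secreted into the matrix and modulate how cells attach to it. Of 12 genes 9 were tested, 2 rose and 4 fell, beside 8.53% and 8.23% of all genes tested, with a median log2 fold change of 0.00. Ccn2, connective tissue growth factor, had 225 and 229 CPM in conditioned medium against 368 and 381 CPM in control (-0.72 ± 0.04; edgeR adjusted p = 8.26e-10). Thbs1, thrombospondin, had 635 and 611 CPM in conditioned medium against 973 and 997 CPM in control (-0.66 ± 0.04; edgeR adjusted p = 2.06e-09), and Tnc, tenascin C, was at -0.63 ± 0.13. These 3 falls were larger than that of any collagen or laminin gene called. The other calls, named after their values were seen, were a fall in Sparcl1, the Sparc relative (-0.42 ± 0.12), and rises in Tnxb, tenascin X (0.42 ± 0.07), and Spp1, osteopontin (0.24 ± 0.06). Sparcl1 was not called in DESeq2 or without conditioned medium replicate 1 or 2 (adjusted p = 0.232, 0.0679 and 0.298), nor Spp1 in DESeq2 (0.0611) or without conditioned medium replicate 2 (0.290, at a log2 fold change of 0.15).

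Cells hold collagen and laminin through integrins, discoidin domain receptors and syndecans. All 16 receptor genes listed were tested, and 4 rose and 1 fell, beside 8.53% and 8.23% of all genes tested. Itga2, a collagen receptor subunit, had 9.52 and 10.6 CPM in conditioned medium against 7.52 and 5.82 CPM in control (0.60 ± 0.15; edgeR adjusted p = 0.00938). Sdc1, a syndecan, rose by 0.40 ± 0.06, and Ddr2, a receptor tyrosine kinase for fibrillar collagen, fell by 0.45 on the log2 scale, with 28.3 and 30.6 CPM in conditioned medium against 41.8 and 38.9 CPM in control. Itga6, a laminin receptor subunit, at 0.34 ± 0.05, and Itga5, of the fibronectin receptor, at 0.15 ± 0.04, were the other rises and were named after their values were seen. Itga2 lost its call without conditioned medium replicate 1 or 2 or control replicate 2 (adjusted p = 0.0534, 0.198 and 0.0541) and in DESeq2 (0.123), and Itga5 without conditioned medium replicate 1 or 2 (0.173 and 0.391) and in DESeq2 (0.0585).

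**Figure D5:**
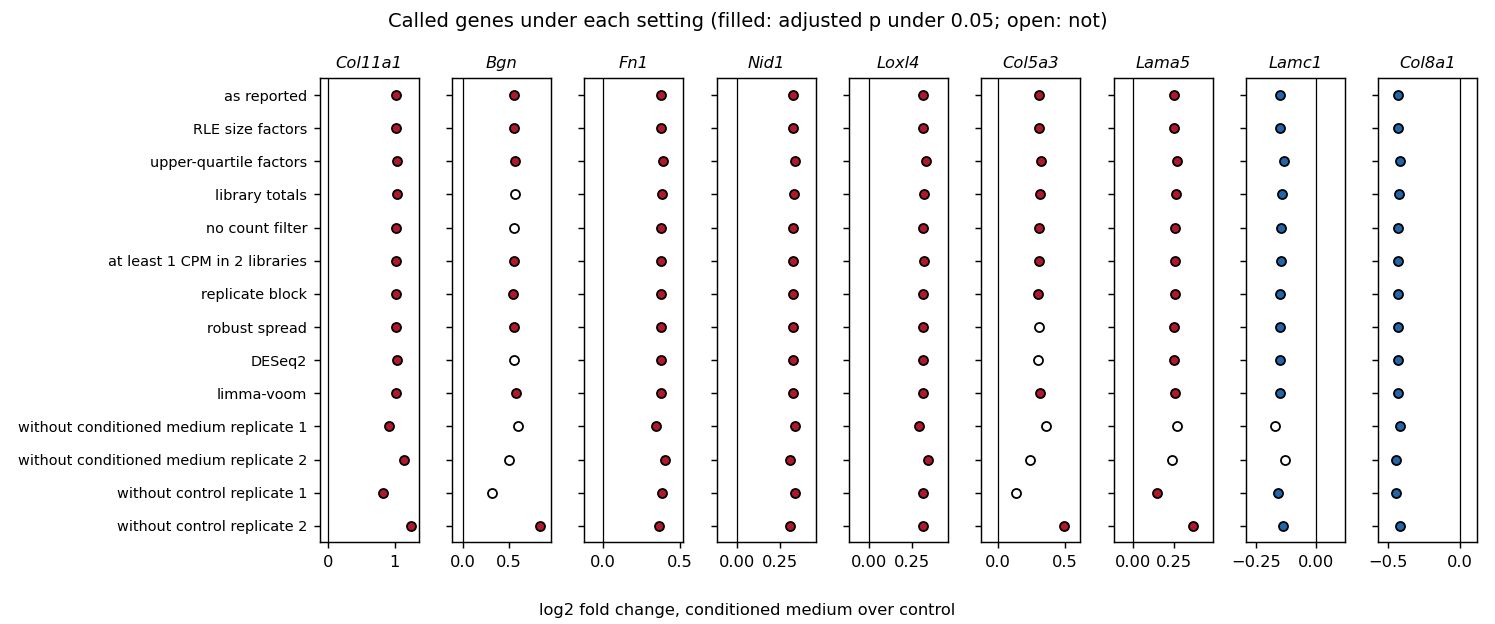
Log2 fold change (conditioned medium over control) of the 9 called genes under the reported setting and 13 alternatives, a row each; filled dots have an adjusted p under 0.05 and open dots do not. Col11a1, Fn1, Nid1, Loxl4 and Col8a1 are filled throughout, and the open dots of Bgn, Col5a3, Lama5 and Lamc1 fall mostly in rows that leave out a library.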

How the data were processed

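RNA from 4 mAEC samples went into libraries from a TruSeq RNA V2 kit, per the labels' protocols; this kit does not mark strand. The authors deposited a table of raw counts per gene by Entrez identifier. Per the submitters' processing notes, mm10, STAR 2.5.2b and featureCounts of Subread 1.4.6-p1 were used; settings and annotation were not given in the sources used here. Identifiers were matched to RefSeq genes of GRCm38.p6, the same build as mm10 (25275 of 27179). The 1904 unmatched rows, with 6.31% of the counts, stayed in library sizes and tests. Exon lengths are unions of GENCODE M21 exons.

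Counts were tested with edgeR 4.0.16 (R 4.3.3): filterByExpr (minimum count 10, total 15), TMM scaling, and the two-sided quasi-likelihood test without a block, with Benjamini-Hochberg adjustment over 13897 genes and 2 residual degrees of freedom. SE is the size of the log2 fold change divided by the root of F. CPM are TMM-scaled. The 13 alternatives changed 1 choice each: scaling (library totals, RLE or upper quartile), filter (none, or 1 CPM in 2 libraries), model (robust spread, replicate block), tool (DESeq2 1.42.0, limma 3.58.1 with voom) or 1 library dropped. The procedure was tested on simulated data. Floors cover counting error only. Since nothing further says how the replicates were separated, p-values measure the spread between these libraries, which may be technical.

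The genes and lists were chosen with earlier results of these data known. Named are all genes called, the tested gene of highest level per kilobase in each role, 16 always given, and the 3 called genes of largest change per list; others discussed were named after their values were seen. How reads in exons that antisense or overlapping genes have in common were assigned was not given. A single tested gene is not reported here by name and stays in the counts.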

Additional observations from a re-analysis of the deposited data

How the results depend on the processing

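The control libraries differed more from each other than the conditioned medium libraries: in 10662 genes averaging 100 counts or more, log2 ratios had an SD of 0.12 between the conditioned medium libraries and 0.15 between the control libraries. Against counting error alone, the chi-square per degree of freedom was 1.51 between the conditioned medium libraries and 4.70 between the control libraries. A fit without a control library thus judges the lone control by the smaller spread, and its calls come too easily. Of the 9 calls, 5 (Fn1, Nid1, Loxl4, Col11a1 and Col8a1) were kept in all 13 alternatives. With single libraries left out, the lone library of the group being assumed to vary like the other group, the number called of the 71 was 4 to 12 higher and 1 to 6 lower, and all genes called numbered 323 to 1485 higher and 246 to 1622 lower. DESeq2 called 473 genes higher and 445 lower over the whole table, and 7 of the 71, all among the 9. In lists, the receptors had 2 rises in DESeq2 and 2 to 7 with libraries left out, and 1 to 2 falls; collagen processing had 3 rises in DESeq2 and 2 to 9 with libraries left out, and 0 to 2 falls; matricellular genes had 1 rise in DESeq2 and 1 to 2 with libraries left out. The further basement membrane list had 1 fall, Ntn4, with RLE scaling, a filter at 1 CPM, the replicate block or a robust spread, and 0 to 1 with libraries left out.

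Medians by role with libraries left out ran from -1.12 to 0.37 for FACIT collagens, 0.073 to 0.15 for laminins (0.076 with a filter at 1 CPM), 0.092 to 0.23 for lysyl oxidases, 0.35 to 1.46 for multiplexins, -0.09 to 0.17 for nidogens, perlecan and agrin, 0.17 to 0.43 for Bgn with Sparc, 0.46 to 0.97 for Col23a1, and 0.37 to 0.55 for Col6a1 with Col7a1. The cause was not tested.

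Some fold changes near 0, or of genes with few counts, turned sign. With libraries left out they ran from -0.11 to 0.11 for Hspg2, -0.040 to 0.037 for Serpinh1, -0.26 to 0.029 for Agrn, -0.0094 to 0.61 for Col20a1, -0.078 to 0.016 for Col4a2, -0.018 to 0.077 for Col4a5, -0.049 to 0.11 for Col5a1, -1.12 to 0.70 for Col9a3 and -0.59 to 0.54 for Nid2. Hspg2 was also 0.0042 with library totals, 0.0010 in limma-voom, 0.0012 with the block and 0.012 with upper-quartile factors. Serpinh1 was 0.0021 with a filter at 1 CPM, 0.0076 with library totals, 0.00021 in limma-voom, 0.0018 with no filter and 0.015 with upper-quartile factors. In limma-voom Col9a3 was -0.11 and Nid2 -0.088.

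The replicate numbers do not pair the samples by any label, and deviations of same-numbered libraries correlated at -0.01. With a replicate block 9 of the 71 were called higher and 2 lower (Col18a1 and Loxl2 added), and among all genes 1361 were called higher and 1310 lower.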

Other observations

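Of the 71 genes, 10 neighbouring pairs lie within 100000 bases of each other, among them Col4a1 with Col4a2 and Col3a1 with Col5a2. Col3a1 and Col5a2, 24624 bases apart on chromosome 1, had log2 fold changes of -0.46 and 0.35 and neither was called. In the Col6a4, Col6a5 and Col6a6 cluster on chromosome 9 all genes had 0 counts, and the head-to-head pair Col4a3 and Col4a4 had 3 and 13. Of chains that assemble with a partner, Col8a1, Col6a1 and Col4a5 were tested while Col8a2, Col6a2 and Col4a6 were not, the partners holding 1, 3 and 15 counts over all libraries.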
